A study of Mus musculus with 54 samples.

Results

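The comparison set livers taken at ZT16 against livers taken at ZT4 in mice whose clock gene Bmal1 works in the suprachiasmatic nucleus but, by design, not in the liver. Zeitgeber time (ZT) is by convention counted in hours from lights on, so ZT4 falls early in the light phase and ZT16 early in the dark phase. It rests on 6 of the 54 whole-liver libraries of the study, 3 at ZT16 and 3 at ZT4, chosen by genotype and time alone. The mice, labelled RE, carry a Bmal1 allele blocked by a floxed STOP cassette together with Syt10-Cre, a Cre driver crossed in to remove the block in the suprachiasmatic nucleus. The same contrast was set beside KO mice, which carry the STOP allele without the Cre, and WT mice, which express Bmal1 in every tissue. Each genotype had 3 livers at each of 6 times, ZT0 to ZT20. Every animal was sampled at a single labelled time, and age, sex, strain and feeding were not given in the labels. The labels do not say in which cells beside those of the suprachiasmatic nucleus the Syt10-Cre acts, which limits RE as a model of a lone central clock.

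Bmal1, listed as Arntl, encodes the partner of CLOCK in the protein pair that binds E-box sequences and switches on the Per, Cry and Rev-erb genes, whose proteins then close the loop. The suprachiasmatic nucleus is the brain centre that reads light and sets the time of rest, activity and feeding, body temperature and glucocorticoid release. A liver without a clock of its own still receives those signals. Heat shock factor, glucocorticoid receptor, CREB and serum response factor are the transcription factors through which body temperature, adrenal hormones, glucagon and blood-borne signals are known to reach liver genes.

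Levels are the deposited FPKM, fragments scaled by transcript length and library size, and livers are called 0, 1 and 2 after their columns. A change is the difference of mean log2(FPKM + 1), ZT16 minus ZT4, given with its standard error, so 1 is a doubling and changes of genes at low FPKM are understated. A gene was called when limma's Benjamini-Hochberg adjusted p over 10932 genes was under 0.05, and rose and fell are used of called genes alone. The depth behind the values is unknown, the labels do not say how the 3 livers of a group were raised, and the p-values measure the spread between these livers.

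Liver 2 of ZT16 stood apart from the other livers. Across genes, its log2(FPKM + 1) correlated with each of the other 5 livers at r between 0.946 and 0.960, against 0.966 to 0.992 for the 10 pairs without it, a description over genes that share a library. In 524 genes it lay more than 1 log2 unit from the mean of its group, the most of all 54 libraries, where the others had 41 to 320. Fabp1, the liver fatty acid binding protein, was at 473 FPKM in it, against 7455 and 7746 FPKM in livers 0 and 1, and Alb was listed at 0 in it. The metallothioneins Mt1 and Mt2 stood at 178 and 141 FPKM in liver 2. In livers 0 and 1, Mt1 was at 15.9 and 9.57 FPKM and Mt2 at 2.59 and 5.75 FPKM. Igfbp1, which binds insulin-like growth factors, was at 436 FPKM in liver 2, against 55.2 and 24.3 FPKM in livers 0 and 1. Among the largest deviations were also genes of the cytochrome P450 family. Cyp4a12a was at 4.41 FPKM in liver 2, against 145 and 140 FPKM in livers 0 and 1. Cyp39a1 was at 132 FPKM in it, against 2.99 and 6.47 FPKM. Selenbp2 was at 16.2 FPKM in it, against 551 and 570 FPKM. What set this liver apart was not tested.

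The marker lists for other cells moved with liver 2 as well. The summed level of 12 gut epithelium markers was 23.8 FPKM in it, against 85.4 to 107 FPKM in the other 5 livers. Fabp2 made up most of that sum, at 90.8, 93 and 16.3 FPKM in the ZT16 livers and 92.6, 87.2 and 75.6 FPKM in the ZT4 livers. The 10 periportal markers summed to 5067 FPKM in it, against 2598 to 3174 FPKM in the other 5, and the 10 stellate markers to 125 FPKM, against 52.6 to 88.4 FPKM. The 12 pancreas markers summed to 39.9 FPKM in it, against 58.3 to 89.9 FPKM in the other 5, with 9 members at 0 in all 6 livers, Prss1 among them. Cela2a of that list was at 22.4 FPKM in liver 2, against 0.208 and 0.225 FPKM in ZT16 livers 0 and 1. Ckm of muscle and Adipoq of fat were also listed at 0 in all 6, but Alb shows that a listed 0 need not mean absence. The 10 hepatocyte markers summed to between 51560 and 56740 FPKM at ZT16, against 53230 to 64830 FPKM at ZT4. Apoa1 of that list was at 14183, 14531 and 14252 FPKM at ZT16, against 14664, 12661 and 10479 FPKM at ZT4, and Serpina1c was listed at 0 in all 3 ZT16 livers. Such listed zeros, that of Alb in liver 2 included, lower the ZT16 sums. The sums therefore do not compare the hepatocyte content of the 2 times. In whole liver, fewer cells of a type and less RNA per cell cannot be told apart. The part of liver 2 and of these markers in the results was not tested beyond the counts and changes given without that liver.

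Of the 10932 genes tested, 1640 were called between ZT16 and ZT4 in RE livers (15%), 791 of them higher at ZT16 (7.24%) and 849 lower (7.77%). A change of at least 1 log2 unit was reached by 101 of the genes that rose (0.924% of the genes tested) and 81 of those that fell (0.741%). Without ZT16 liver 2 the count was 956 (8.74%), with 523 higher (4.78%) and 433 lower (3.96%). Of these, 794 were also called with all 6 livers, all with the same sign, which is 48.4% of the 1640 and 83.1% of the 956. In 4117 genes (37.7%) the ZT16 and ZT4 livers did not overlap. The 15 largest rises and 15 largest falls described below were taken only from called genes without such overlap. For them, Hspa8, Hsph1, Pck1 and Cyp8b1 included, the separation of the 2 times was fixed by that choice. Leaving out ZT4 liver 0 left 389 calls and leaving out ZT4 liver 1 left 656. The median spread within a group was 0.197 log2 units at RE ZT16 and 0.115 in its livers 0 and 1 alone, against 0.118 at RE ZT4. Where no share is given, list counts below stand beside 7.24% of all genes higher and 7.77% lower. Without ZT16 liver 2 these shares were 4.78% and 3.96%.

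**Figure D1:**
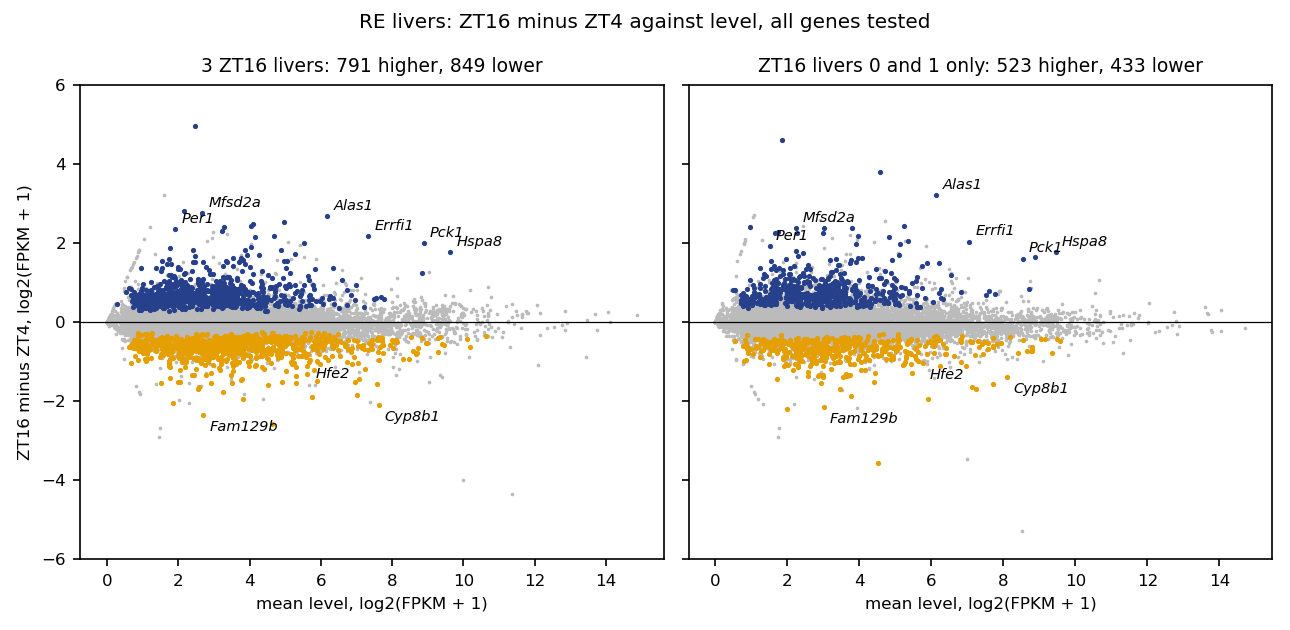
Change between ZT16 and ZT4 in RE livers (vertical axis, log2(FPKM + 1)) against the mean level (horizontal axis, log2(FPKM + 1)) for the genes tested, with all 3 ZT16 livers on the left and livers 0 and 1 alone on the right. Blue points are the genes called higher at ZT16 (791 and 523) and orange points those called lower (849 and 433). 2 genes lie outside the left axis and 1 outside the right.

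Heat shock genes rose. This family holds the chaperones and co-chaperones that heat shock factor switches on. Of 20 members tested, 8 rose, beside 7.24% of all genes, and none fell, with a median change of 0.65 beside 0.0013 over all genes tested. Without liver 2, 7 rose and none fell. Hspa8, the constitutive chaperone that folds new and unfolded proteins, was at 1697, 1238 and 1460.2 FPKM at ZT16, against 437, 326 and 554 FPKM at ZT4. Every ZT16 liver was above every ZT4 liver, and the change was 1.76 ± 0.25 (adjusted p = 0.0016). Hsph1, which exchanges the nucleotide of Hsp70 chaperones, was at 38.5, 28.2 and 27.3 FPKM at ZT16, against 6.90, 6.62 and 9.69 FPKM at ZT4. These groups did not overlap either, with a change of 1.89 ± 0.32 (adjusted p = 0.0028).

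Partner proteins of the chaperones moved with them. Chordc1, a co-chaperone of Hsp90, was at 35.4, 29.1 and 37 FPKM at ZT16, against 8.07, 8.70 and 13.4 FPKM at ZT4, a change of 1.68 ± 0.27 (adjusted p = 0.0021). Dnaja1, which hands clients to Hsp70, was at 102, 89.6 and 79.7 FPKM at ZT16, against 33.8, 29.9 and 43.8 FPKM at ZT4, a change of 1.32 ± 0.20 (adjusted p = 0.0021). In both genes the times were apart, and ZT16 liver 2 lay close to the other ZT16 livers. Hsp90aa1, the inducible cytosolic Hsp90, rose by 1.05 ± 0.27 (adjusted p = 0.019). Its constitutive sister Hsp90ab1 was at 446, 321 and 312 FPKM at ZT16, against 374, 334 and 337 FPKM at ZT4, with overlapping groups and a change of 0.03 ± 0.18 (adjusted p = 0.94). The mitochondrial pair Hspd1 and Hspe1 had changes of -0.24 ± 0.14 (adjusted p = 0.25) and -0.22 ± 0.16 (adjusted p = 0.37). The calls within the family (also Hspa1b, Dnajb1 and Cacybp) fell on cytosolic members.

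Promoter windows are shown for Hsph1 and Chordc1 because they hold a heat shock element, the sequence that heat shock factor binds. The windows come from RefSeq (GRCm38.p6), run 5′ to 3′ on the gene's strand from 250 bases before to 50 bases after the annotated start, and capitals mark the element, read on either strand as GAA, NN, TTC, NN and GAA in a row, where N is any base. The Hsph1 window, 1 of 2 that the table gives for the gene, is chr5:149636287-149636586 on the minus strand, and the Chordc1 window is chr9:18292017-18292316 on the plus strand.
Hsph1: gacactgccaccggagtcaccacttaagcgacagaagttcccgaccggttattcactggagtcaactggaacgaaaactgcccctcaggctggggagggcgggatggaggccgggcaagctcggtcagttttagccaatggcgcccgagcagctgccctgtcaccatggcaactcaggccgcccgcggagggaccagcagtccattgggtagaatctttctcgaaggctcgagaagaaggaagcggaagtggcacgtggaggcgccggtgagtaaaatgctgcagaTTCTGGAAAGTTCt
Chordc1: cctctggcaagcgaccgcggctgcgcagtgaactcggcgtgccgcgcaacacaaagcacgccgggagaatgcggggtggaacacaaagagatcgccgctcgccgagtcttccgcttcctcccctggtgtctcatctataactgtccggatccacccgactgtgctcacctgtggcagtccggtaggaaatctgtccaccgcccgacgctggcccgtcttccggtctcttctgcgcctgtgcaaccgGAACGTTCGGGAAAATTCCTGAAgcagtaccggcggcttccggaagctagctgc
In Chordc1 the capitals hold 3 overlapping matches. The Hsph1 window also holds an E-box, CACGTG, left in lower case and clear of the element. The element was found in 0.603% of 32851 promoter windows, and in 4 of the 17 heat shock genes with a window (Chordc1, Hspd1, Hspe1 and Hsph1). Hspd1 and Hspe1, which share a promoter region and were not called, hold it too. A match is a stretch of letters and not a measured binding site.

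The cold-inducible RNA-binding proteins, which mark lower body temperature in mammals, moved in opposite directions. Cirbp was at 10.5, 11 and 13 FPKM at ZT16, against 26.6, 32.2 and 19.2 FPKM at ZT4, a change of -1.09 ± 0.34 (adjusted p = 0.042). Rbm3 was at 71.3, 43.8 and 122 FPKM at ZT16, against 29.7, 31 and 36.3 FPKM at ZT4, a change of 1.15 ± 0.28 (adjusted p = 0.015). ZT16 liver 2 had the highest Rbm3 of the 6 livers. Without it the change of Rbm3 was 0.78 ± 0.23 (adjusted p = 0.049) and that of Cirbp -1.17 ± 0.39 (adjusted p = 0.072).

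**Figure D2:**
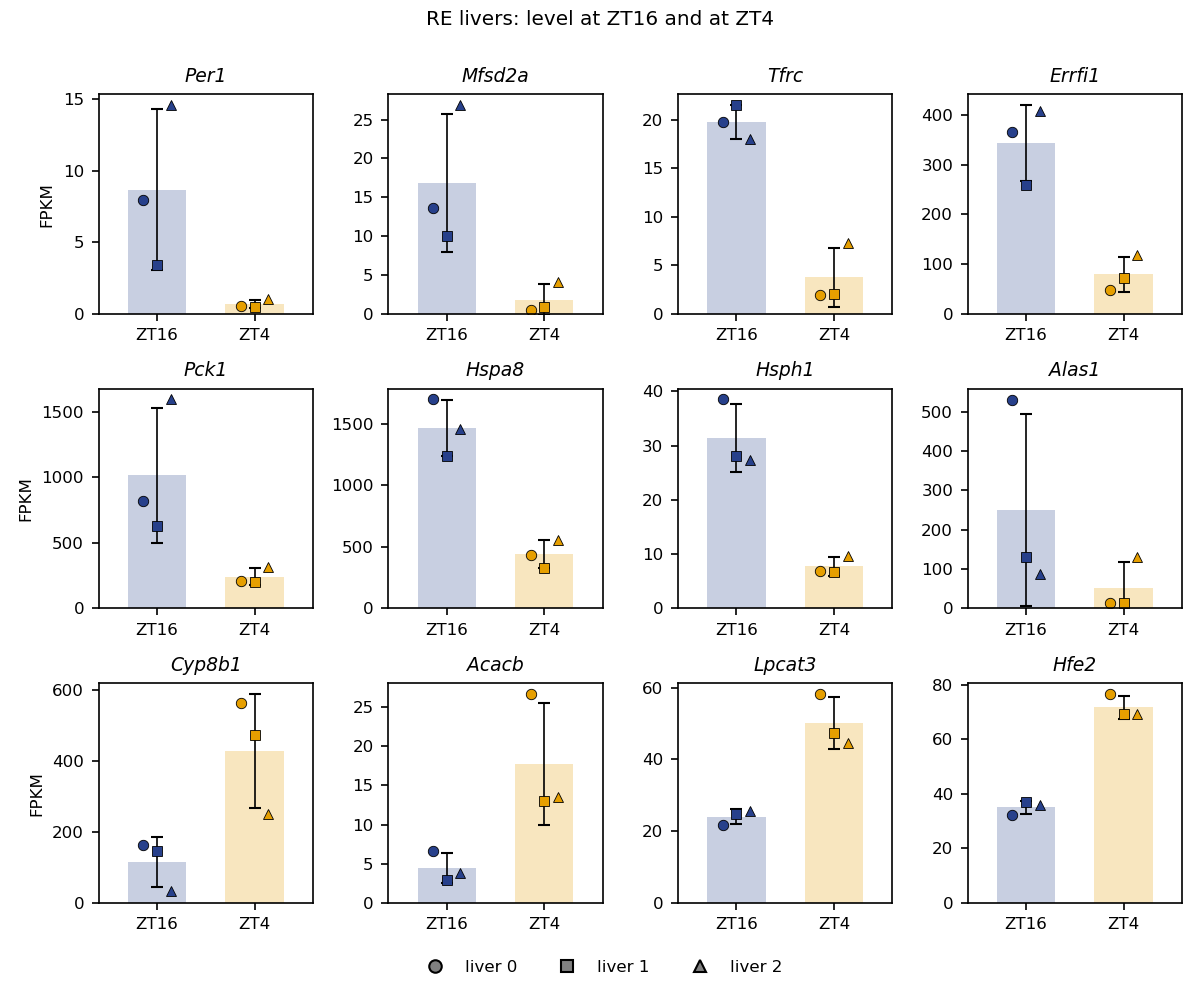
FPKM (vertical axes, linear, from 0) of 12 genes in the RE livers at ZT16 (blue) and ZT4 (orange), with a symbol for each liver, bars at the mean and error bars of 1 SD (n = 3). Hspa8, Hsph1, Lpcat3 and Hfe2 have tight, separate groups, whereas Alas1 overlaps through ZT4 liver 2 (129.5 FPKM).

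Genes that respond to glucocorticoid receptor rose in part. Of 14 tested, 5 rose, beside 7.24% of all genes, and none fell, with a median change of 1.29. Without liver 2, 2 rose (Per1 and Errfi1), beside 4.78% of all genes. Per1, a clock repressor that is also switched on directly by glucocorticoids and by CREB, was at 7.96, 3.43 and 14.6 FPKM at ZT16, against 0.557, 0.508 and 1.02 FPKM at ZT4. All ZT16 livers were above all ZT4 livers, and liver 2 was the highest. Its change was 2.34 ± 0.38 (adjusted p = 0.0023) with all livers and 1.91 ± 0.35 (adjusted p = 0.0089) without liver 2. Errfi1, which blocks the EGF receptor, was at 366, 259 and 407 FPKM at ZT16, against 48.8, 72.6 and 118 FPKM at ZT4. The change was 2.16 ± 0.35 (adjusted p = 0.0024), and it was 2.03 ± 0.40 (adjusted p = 0.010) without liver 2.

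The calls of 3 further members of that list ended without liver 2 of ZT16. Tsc22d3, the glucocorticoid-induced leucine zipper, was at 108, 90.9 and 222 FPKM at ZT16, against 42.8, 35.7 and 81.7 FPKM at ZT4. Its call, 1.36 ± 0.38 (adjusted p = 0.031), ended without liver 2, at 0.97 ± 0.38 (adjusted p = 0.12). Dusp1, a phosphatase of MAP kinases, was at 15.6, 13.8 and 26.7 FPKM at ZT16, against 6.83, 6.34 and 5.16 FPKM at ZT4, with 1.42 ± 0.41 (adjusted p = 0.033) in all livers and 1.15 ± 0.45 (adjusted p = 0.12) without liver 2. Cdkn1a, the cell cycle inhibitor p21, was at 39.5, 30.5 and 40.7 FPKM at ZT16, against 6.12, 6.43 and 10.8 FPKM at ZT4, with 2.13 ± 0.57 (adjusted p = 0.025) and 2.06 ± 0.66 (adjusted p = 0.066) without liver 2. The chaperone cofactor Fkbp5 had 10.3, 9.03 and 22.4 FPKM at ZT16, against 3.82, 3.76 and 2.92 FPKM at ZT4 and was not called, at 1.63 ± 0.53 (adjusted p = 0.052). In each of these 4 genes the lowest ZT16 liver was above the highest ZT4 liver, and liver 2 was the highest of the 6.

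Windows of Errfi1 and Slc25a25 are shown because each holds a full cAMP response element, TGACGTCA, to which CREB binds, and that of Per1 because it holds an E-box, CACGTG, and a D-box, TTATGNAA, the motifs of the clock's own factors. The source and span are as above, and capitals mark the motifs, which do not overlap each other. The table gives Errfi1 and Per1 2 windows each and Slc25a25 3, for alternative starts, and those shown hold the motifs. All 3 windows shown lie inside the span annotated for their gene. The last bases of the Slc25a25 window, and of the Chordc1 window above, were not found in the GENCODE transcripts of those genes. The windows are chr4:150854820-150855119 on the plus strand, chr2:32424017-32424316 on the minus strand and chr11:69098699-69098998 on the plus strand.
Errfi1: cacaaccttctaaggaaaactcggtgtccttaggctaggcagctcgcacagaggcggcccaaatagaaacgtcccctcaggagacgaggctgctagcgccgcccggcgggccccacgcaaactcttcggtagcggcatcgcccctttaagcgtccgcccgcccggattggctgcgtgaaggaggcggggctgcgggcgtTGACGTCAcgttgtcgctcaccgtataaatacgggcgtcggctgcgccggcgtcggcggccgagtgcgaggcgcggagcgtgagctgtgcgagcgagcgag
Slc25a25: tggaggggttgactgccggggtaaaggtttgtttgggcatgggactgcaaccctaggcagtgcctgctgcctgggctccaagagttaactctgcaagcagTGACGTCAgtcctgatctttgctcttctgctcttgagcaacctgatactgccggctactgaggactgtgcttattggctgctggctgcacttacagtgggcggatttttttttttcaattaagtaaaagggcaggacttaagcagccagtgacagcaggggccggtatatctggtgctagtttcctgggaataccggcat
Per1: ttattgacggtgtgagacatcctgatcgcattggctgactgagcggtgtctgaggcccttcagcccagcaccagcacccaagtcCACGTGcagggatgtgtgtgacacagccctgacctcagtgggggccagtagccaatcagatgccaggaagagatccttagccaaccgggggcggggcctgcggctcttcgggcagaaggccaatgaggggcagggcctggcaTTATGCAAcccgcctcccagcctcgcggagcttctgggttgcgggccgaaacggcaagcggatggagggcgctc
The cAMP response element was in 1.79% of the 32851 windows, the E-box in 7.15% and the D-box in 3.38%. Of the 13 glucocorticoid-list genes with a window, 2 held the cAMP response element (Dusp1 and Errfi1) and 1, Sgk1, held the glucocorticoid response element, AGAACA and TGTNCT with 3 bases between them. All motifs were searched on both strands. The windows were not read for any other feature.

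Fasting and glucose genes held few calls. Of 15 gluconeogenesis and fasting genes, 2 rose and 1, Sesn1, fell, which is near the 7.24% and 7.77% of all genes, and Pck1 alone was called without liver 2. Pck1, the enzyme that commits carbon to glucose synthesis, was at 819, 629 and 1595 FPKM at ZT16, against 211, 199.8 and 314 FPKM at ZT4. The groups were apart, and the change was 1.98 ± 0.44 (adjusted p = 0.011), or 1.6 ± 0.46 (adjusted p = 0.045) without liver 2. G6pc, which frees glucose in the last step, was at 368, 259 and 397 FPKM at ZT16, against 218, 104 and 293 FPKM at ZT4, with overlapping groups and 0.83 ± 0.40 (adjusted p = 0.17). Slc37a4, which carries glucose-6-phosphate to that enzyme, rose by 0.93 ± 0.24 (adjusted p = 0.019). Slc25a25, a mitochondrial carrier of ATP-Mg and phosphate, was at 108, 81.3 and 85.7 FPKM at ZT16, against 25.7, 7.68 and 51.6 FPKM at ZT4, a change of 2.00 ± 0.44 (adjusted p = 0.010).

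Genes of glycolysis and glycogen gave calls in both directions. Pfkfb3, which makes the activator of glycolysis, was at 12.3, 4.51 and 2.74 FPKM at ZT16, against 0.687, 0.806 and 0.884 FPKM at ZT4, and all 3 ZT16 livers exceeded the ZT4 livers. The change was 1.86 ± 0.51 (adjusted p = 0.026). Stbd1, which tethers glycogen to membranes, rose by 0.92 ± 0.18 (adjusted p = 0.0067), and Gyg, the primer of glycogen, fell to 5.07, 3.90 and 2.39 FPKM at ZT16, against 7.14, 7.15 and 6.06 FPKM at ZT4. In the glycogen and glucose entry list as a whole, 3 of 17 rose (Pfkfb3, Pfkfb1 and Stbd1) and Gyg fell, and without liver 2 only Pfkfb3 and Stbd1 were called.

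Ribosome biogenesis genes, which process ribosomal RNA in the nucleolus, held more rises than any other list. Of 19 tested, 9 rose, beside 7.24% of all genes, and none fell, with a median of 0.71, and 12 rose without liver 2. All 19 had a positive change. Nop56, a core protein of box C/D particles that methylate ribosomal RNA, was at 45.2, 19.6 and 17.3 FPKM at ZT16, against 7.73, 7.35 and 12.8 FPKM at ZT4. Wdr12, needed for the large subunit, was at 12.7, 9.68 and 8.30 FPKM at ZT16, against 5.05, 4.61 and 6.98 FPKM at ZT4. The livers of both genes were apart, and liver 0 was the highest at ZT16. Their changes were 1.37 ± 0.33 (adjusted p = 0.014) and 0.78 ± 0.16 (adjusted p = 0.0070). The 40 cytosolic ribosomal protein genes tested held no call in either direction, with a median of 0.29 and 37 positive changes. Without liver 2 that median was 0.086.

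Targets of the unfolded protein response, which expands the folding capacity of the endoplasmic reticulum, also stood on the rising side. Of 19 tested, 4 rose, beside 7.24% of all genes, and none fell (median 0.51). In KO livers no member was called, but all 19 changes were positive (median 0.49). In RE livers without ZT16 liver 2, 9 rose (median 0.76), beside 4.78% of all genes. Hspa5, the chaperone BiP, was at 1063, 826 and 402 FPKM at ZT16, against 286, 282 and 332 FPKM at ZT4. Liver 2 was the lowest at ZT16 but above the ZT4 livers. The change was 1.24 ± 0.33 (adjusted p = 0.022), or 1.64 ± 0.29 (adjusted p = 0.0076) without liver 2. Dnajb9, a co-chaperone of BiP, was at 81.7, 56.5 and 34.1 FPKM at ZT16, against 11.2, 12.2 and 22.5 FPKM at ZT4, a change of 1.82 ± 0.37 (adjusted p = 0.0073). Creld2 and Manf, secreted markers of the response, were called only without liver 2. Creld2 was at 123, 86.9 and 16.4 FPKM at ZT16, against 19.2, 20.6 and 15.7 FPKM at ZT4, with 2.43 ± 0.53 (adjusted p = 0.015) without that liver and 1.56 ± 0.64 (adjusted p = 0.11) with it. Manf was at 146, 127 and 42 FPKM at ZT16, against 46.5, 46.7 and 49.8 FPKM at ZT4, with 1.5 ± 0.39 (adjusted p = 0.033) and 0.94 ± 0.44 (adjusted p = 0.16). In both genes ZT16 liver 2 lay among the ZT4 livers or below them, and livers 0 and 1 far above them.

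**Figure D3:**
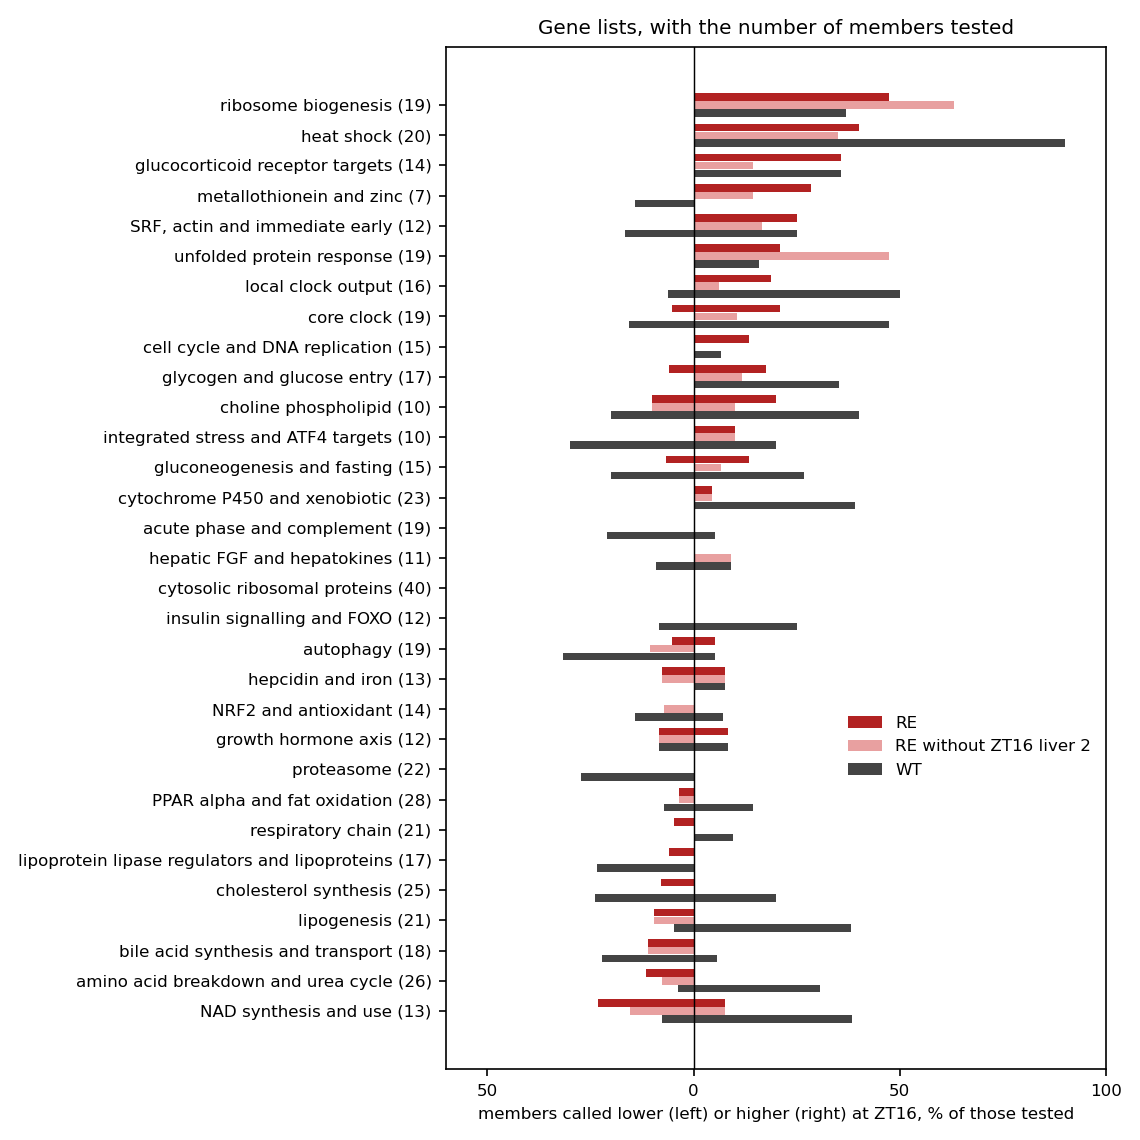
Share of the tested members of each gene list (rows, with the number tested in brackets) called higher at ZT16 (bars to the right) or lower (bars to the left), in RE livers, RE livers without ZT16 liver 2, and WT livers. Lists of fewer than 7 tested members are not shown. Of those shown, ribosome biogenesis (9 of 19) and heat shock (8 of 20) have the largest shares of rises in RE, and lists of lipid and amino acid metabolism hold few calls.

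Further large rises were found in iron, lipid and signalling genes. Mfsd2a, a transporter of lysophosphatidylcholine that carries fatty acids into cells, was at 13.6, 9.98 and 26.9 FPKM at ZT16, against 0.477, 0.908 and 4.14 FPKM at ZT4. Its change was 2.76 ± 0.59 (adjusted p = 0.0095). Tfrc, the receptor that takes up transferrin-bound iron, was at 19.8, 21.5 and 18 FPKM at ZT16, against 1.94, 2.06 and 7.29 FPKM at ZT4, a change of 2.30 ± 0.36 (adjusted p = 0.0021). Ccrn4l, the deadenylase-like protein nocturnin, was at 8.36, 5.82 and 24.3 FPKM at ZT16, against 0.269, 0.207 and 2.18 FPKM at ZT4, a change of 2.79 ± 0.60 (adjusted p = 0.0096). In each of the 3 genes ZT4 liver 2 was the highest ZT4 liver. It lay below every ZT16 liver, as the rule that chose these genes requires.

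The remaining genes among the 15 largest rises kept the livers of the 2 times apart by the rule that chose them. Tsku, a secreted hepatokine, was at 66.5, 85.3 and 69.3 FPKM at ZT16, against 7.39, 5.68 and 38.2 FPKM at ZT4. Plk3, a stress-responsive kinase, was at 19.7, 19.1 and 26.9 FPKM at ZT16, against 2.53, 5.01 and 2.67 FPKM at ZT4. St3gal5, which makes the ganglioside GM3, was at 46.9, 49.5 and 66.2 FPKM at ZT16, against 15.7, 11.5 and 7.39 FPKM at ZT4. The changes were 2.51 ± 0.77 (adjusted p = 0.041), 2.40 ± 0.46 (adjusted p = 0.0060) and 2.18 ± 0.57 (adjusted p = 0.021). Rcan1, an inhibitor of calcineurin, was at 56.8, 24.1 and 13.3 FPKM at ZT16, against 6.91, 5.97 and 10.2 FPKM at ZT4, a change of 1.69 ± 0.43 (adjusted p = 0.020). Of the 15, 12 were called without liver 2, and Tsku, St3gal5 and Cdkn1a were not, with changes of 2.55 ± 0.89 (adjusted p = 0.087), 2.03 ± 0.65 (adjusted p = 0.065) and 2.06 ± 0.66 (adjusted p = 0.066) without it.

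Alas1, the rate-limiting enzyme of heme synthesis, showed how far single livers reached. It was at 531, 131 and 86.7 FPKM at ZT16, against 12.4, 12.9 and 129.5 FPKM at ZT4. ZT4 liver 2 was above ZT16 liver 2 and level with ZT16 liver 1, so the groups overlapped, although the change of 2.66 ± 0.82 (adjusted p = 0.042) was called. Socs2, a brake on growth hormone signalling, was at 45.9, 12.7 and 19.2 FPKM at ZT16, against 4.64, 10.9 and 5.77 FPKM at ZT4, a change of 1.61 ± 0.49 (adjusted p = 0.040), without overlap. The transcription factor gene Stat5b of the same axis was at 6.73, 10.01 and 14.5 FPKM at ZT16, against 19.8, 20.1 and 15.7 FPKM at ZT4, and fell by 0.83 ± 0.20 (adjusted p = 0.014). Liver 2 was the ZT16 liver nearest to the ZT4 livers in Stat5b.

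The genes with large falls were of several kinds. Fam129b, the signalling adaptor also called niban-like, was at 1.93, 2.70 and 1.15 FPKM at ZT16, against 18.8, 15.6 and 8.45 FPKM at ZT4, a change of -2.35 ± 0.37 (adjusted p = 0.0021). Adck3, a kinase-like protein needed for coenzyme Q synthesis, was at 95, 125 and 109 FPKM at ZT16, against 345, 296 and 337 FPKM at ZT4. The livers of each time were close together and the times far apart, with a change of -1.57 ± 0.19 (adjusted p = 0.00079). Aqp8, a water channel of the bile canaliculus, was at 60.3, 90.2 and 53.6 FPKM at ZT16, against 363, 239 and 167 FPKM at ZT4, a change of -1.86 ± 0.36 (adjusted p = 0.0060). Sucnr1, the succinate receptor, was at 19.6, 29.8 and 7.71 FPKM at ZT16, against 51.7, 56.1 and 42.4 FPKM at ZT4, with liver 2 the lowest and a change of -1.52 ± 0.35 (adjusted p = 0.013).

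Further falls lost their calls without liver 2 of ZT16. Psmb9, a subunit of the immunoproteasome, was at 20.6, 25.2 and 3.03 FPKM at ZT16, against 36.8, 46.1 and 35.2 FPKM at ZT4. Liver 2 alone was far down, and without it the change was -0.75 ± 0.27 (adjusted p = 0.094), against -1.61 ± 0.50 (adjusted p = 0.042) with it. Apol9b and Osgin1 had -1.03 ± 0.42 (adjusted p = 0.14) and -1.01 ± 0.37 (adjusted p = 0.10) without it, against -1.54 ± 0.45 (adjusted p = 0.035) and -1.51 ± 0.41 (adjusted p = 0.026) with it. The change of Arrdc3, an arrestin-like adaptor, was larger without liver 2 and just missed the threshold, at -2.17 ± 0.64 (adjusted p = 0.050), against -1.96 ± 0.57 (adjusted p = 0.033) with it. Dhcr7, also among the 15, is described with cholesterol synthesis. Of the 15 largest falls, 10 were called without liver 2. Arrdc3 was at 5.94, 4.59 and 8.59 FPKM at ZT16, against 41.8, 52.1 and 8.62 FPKM at ZT4, where ZT4 liver 2 came close to ZT16 liver 2.

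Bile acid synthesis held 2 falls. Cyp8b1, the sterol hydroxylase that decides how much cholic acid is made, was at 163, 147 and 34.6 FPKM at ZT16, against 562, 473 and 251 FPKM at ZT4. The groups were apart, and the change was -2.09 ± 0.48 (adjusted p = 0.012), or -1.38 ± 0.36 (adjusted p = 0.032) without liver 2. Hsd3b7, an early enzyme of the same pathway, was at 335, 329 and 253 FPKM at ZT16, against 532, 509 and 571 FPKM at ZT4, a change of -0.82 ± 0.11 (adjusted p = 0.0014). Cyp7a1, the rate-limiting enzyme, was at 43.6, 52.1 and 35.9 FPKM at ZT16, against 64.4, 45.2 and 35.9 FPKM at ZT4, with wide overlap and a change of -0.12 ± 0.56 (adjusted p = 0.92). In the list of 18, 2 fell and none rose, with and without liver 2. The share of all genes that fell was 7.77%, and 3.96% without that liver. Among the alternative fits described at the end, 3 ended the call of Cyp8b1 and 0 that of Hsd3b7.

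Fat and cholesterol synthesis held few calls. Of 25 cholesterol genes, 2 fell (Dhcr7 and Srebf2, the transcription factor of the pathway), beside 7.77% of all genes, and none rose. The median was -0.54, and no member was called without liver 2. Dhcr7, the last enzyme of the pathway, was at 44.5, 28.9 and 31.5 FPKM at ZT16, against 145, 86.7 and 75.8 FPKM at ZT4, a change of -1.49 ± 0.39 (adjusted p = 0.021), and -1.43 ± 0.45 (adjusted p = 0.060) without liver 2. Hmgcs1, an early enzyme of the pathway, was at 289, 148 and 127 FPKM at ZT16, against 607, 319 and 299 FPKM at ZT4, without overlap and with a change of -1.14 ± 0.48 (adjusted p = 0.12). Liver 0 was the highest of each group in both genes.

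Of 21 lipogenesis genes, 2 fell and none rose, with and without liver 2. The share of all genes that fell was 7.77%, and 3.96% without that liver. Acacb, the mitochondrial acetyl-CoA carboxylase whose product restrains fat oxidation, was at 6.65, 2.88 and 3.81 FPKM at ZT16, against 26.7, 13 and 13.5 FPKM at ZT4, a change of -1.77 ± 0.38 (adjusted p = 0.0100). Slc25a1, which exports citrate for fat synthesis, was at 130.1, 115 and 106 FPKM at ZT16, against 221, 166 and 185 FPKM at ZT4, a change of -0.70 ± 0.16 (adjusted p = 0.012). Fasn, the fatty acid synthase, was at 50.1, 39 and 50.3 FPKM at ZT16, against 70.4, 30.8 and 66 FPKM at ZT4, with overlapping groups and a change of -0.18 ± 0.46 (adjusted p = 0.83). Acss2, which makes cytosolic acetyl-CoA from acetate, is not a member of that list and was among the 15 largest falls. It was at 75.4, 64.2 and 106 FPKM at ZT16, against 329.5, 188 and 173 FPKM at ZT4. Its change was -1.45 ± 0.43 (adjusted p = 0.037). Among 28 genes of fat oxidation 1 was called, Pdk4, a kinase that turns off pyruvate dehydrogenase, at 5.96, 5.05 and 10.8 FPKM at ZT16, against 19.99, 9.92 and 20.8 FPKM at ZT4. Its ZT16 liver 2 was above ZT4 liver 1, so the groups overlapped, and the change was -1.11 ± 0.31 (adjusted p = 0.027).

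A pair of membrane and iron genes fell with little spread, which their choice as called list members of smallest adjusted p partly fixes. Lpcat3, which puts polyunsaturated chains into phospholipids, was at 21.7, 24.9 and 25.6 FPKM at ZT16, against 58.3, 47.5 and 44.5 FPKM at ZT4, a change of -1.02 ± 0.13 (adjusted p = 0.00079). Hfe2, hemojuvelin, the co-receptor that drives hepcidin, was at 32.3, 36.9 and 35.9 FPKM at ZT16, against 76.6, 69.2 and 69.2 FPKM at ZT4, a change of -1.01 ± 0.13 (adjusted p = 0.00079). Hamp, hepcidin itself, was at 2179.6, 1859.8 and 2759.9 FPKM at ZT16, against 1136, 1264 and 1278 FPKM at ZT4. All 3 ZT16 livers were above the ZT4 livers in Hamp, but with the spread of the other RE times the change of 0.87 ± 0.49 (adjusted p = 0.24) was not called.

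Amino acid breakdown, NAD and metal genes gave single calls. Of 26 genes of amino acid breakdown and the urea cycle 3 fell, beside 7.77% of all genes. Among them was Amt, of the glycine cleavage system, at 22.3, 16.1 and 25 FPKM at ZT16, against 40.8, 36.3 and 35.5 FPKM at ZT4 with a change of -0.82 ± 0.15 (adjusted p = 0.0037). The others were Hal, of histidine breakdown, and Aldh4a1, of proline breakdown, and without liver 2 the called members were Amt and Ass1. In NAD metabolism 1 of 13 rose and 3 fell (Nmnat3, Qprt and Naprt), and without liver 2 Nampt rose and Nmnat3 and Haao fell. Nampt, the rate-limiting enzyme of NAD salvage, was at 13.9, 13 and 13.4 FPKM at ZT16, against 7.73, 7.70 and 6.86 FPKM at ZT4, a change of 0.78 ± 0.13 (adjusted p = 0.0031). Nmnat3, the mitochondrial enzyme of the next step, was at 2.65, 2.51 and 1.13 FPKM at ZT16, against 5.32, 5.48 and 4.46 FPKM at ZT4, a change of -1.01 ± 0.18 (adjusted p = 0.0037). Slc39a14 and Slc30a10, transporters of zinc and manganese, rose by 1.10 ± 0.26 (adjusted p = 0.014) and 0.71 ± 0.14 (adjusted p = 0.0062), while Mt1 and Mt2 were high in liver 2 alone, with changes of 0.15 ± 1.27 (adjusted p = 0.96) and 1.21 ± 1.32 (adjusted p = 0.57). Tfrc and Hfe2 were the called members of the 13 genes of hepcidin and iron, with and without liver 2. The lists for acute phase and complement (19 tested), proteasome (22) and insulin signalling (12) held no called member.

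Immediate early genes and outputs of a local clock gave scattered calls. In the list of serum response factor targets, actin genes and immediate early genes 3 of 12 rose, beside 7.24% of all genes. They were Jun, Atf3 and Tpm4, of which Tpm4 was not called without liver 2. Jun, a subunit of the AP-1 factor, was at 6.28, 3.93 and 3.01 FPKM at ZT16, against 1.74, 0.948 and 1.35 FPKM at ZT4, a change of 1.17 ± 0.34 (adjusted p = 0.033). Atf3, a stress-induced repressor, was at 1.88, 0.328 and 0.780 FPKM at ZT16, against 0.0764, 0.183 and 0.101 FPKM at ZT4, a change of 0.76 ± 0.20 (adjusted p = 0.023). In both, all ZT16 livers were above all ZT4 livers and liver 0 was the highest. Of 16 outputs known from livers with a clock of their own, 3 rose (Nampt, Usp2 and Coq10b), beside 7.24% of all genes. Usp2, a deubiquitinase, was at 4.30, 5.64 and 6.58 FPKM at ZT16, against 1.34, 1.05 and 2.05 FPKM at ZT4, a change of 1.40 ± 0.42 (adjusted p = 0.039), and 1.28 ± 0.48 (adjusted p = 0.11) without liver 2. Coq10b, of coenzyme Q transport, was at 21, 18.2 and 23.9 FPKM at ZT16, against 5.18, 4.50 and 12.2 FPKM at ZT4, a change of 1.52 ± 0.38 (adjusted p = 0.018), and 1.43 ± 0.44 (adjusted p = 0.056) without liver 2.

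Several lists held a call or a pair. Ddit3, the stress factor CHOP, rose among 10 targets of the integrated stress response, with a change of 0.90 ± 0.25 (adjusted p = 0.026). Atg16l1 rose and Atg9a fell among 19 autophagy genes, with changes of 0.60 ± 0.16 (adjusted p = 0.022) and -0.50 ± 0.12 (adjusted p = 0.015). Uqcrc1, of complex III, fell among 21 respiratory chain genes, with a change of -0.57 ± 0.14 (adjusted p = 0.018). Lrp1, a receptor of remnant lipoproteins, fell among 17 lipoprotein genes, with a change of -0.52 ± 0.15 (adjusted p = 0.031). Cdkn1a and Mdm2, both known targets of p53, rose among 15 cell cycle genes, and neither was called without liver 2. The 14 NRF2 targets and 11 hepatokine genes held no call, and a fall of Gclc and a rise of Inhba without liver 2. Without that liver Ddit3 and Atg9a kept their calls, Atg16l1, Uqcrc1 and Lrp1 did not, and Gabarapl1 was called lower. Of the lists of cell type markers, those of Kupffer cells, endothelium, stellate cells, bile duct, lymphocytes, neutrophils, red cells, pancreas, gut, muscle and fat held no called gene, and without liver 2 Cela2a of the pancreas list was called lower. The calls among hepatocyte zone markers were Pck1 and Hal of the periportal list and Rhbg, an ammonium transporter, of the pericentral list, of which Pck1 was called without liver 2. The hepatocyte list held 1, Serpina1c, a gene listed at 0 in some livers and given no fold.

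Core clock genes, the last group, held 4 rises (Per1, Per2, Clock and Ciart) and 1 fall among 19, beside 7.24% and 7.77% of all genes. Without liver 2 they held 2 rises (Per1 and Per2) and no fall, beside 4.78% and 3.96%. Ciart was near the floor in RE livers, at 0.309, 0.420 and 0.521 FPKM at ZT16, against 0, 0.0341 and 0.0746 FPKM at ZT4. Arntl itself was at 10.03, 10.1 and 11 FPKM at ZT16, against 13.1, 13.3 and 13.3 FPKM at ZT4 in RE livers, at 12.4, 10.6 and 10.6 FPKM at ZT16, against 11.9, 12.4 and 13.4 FPKM at ZT4 in KO livers and at 4.81, 6.01 and 6.48 FPKM at ZT16, against 5.57, 2.54 and 1.39 FPKM at ZT4 in WT livers. A level over the whole gene does not show whether its transcript passes the STOP cassette, so it does not check the genotype. Nr1d1, a direct target of BMAL1 and CLOCK, was at 1.20, 1.04 and 0.557 FPKM at ZT16, against 0.962, 0.912 and 0.844 FPKM at ZT4 in RE livers and 0.455, 1.25 and 0.554 FPKM at ZT16, against 0.968, 1.48 and 0.724 FPKM at ZT4 in KO livers. In WT livers it was at 1.23, 0.755 and 1.14 FPKM at ZT16, against 45.1, 45.4 and 51.8 FPKM at ZT4. RE and KO livers thus lay together at both times, below the WT livers of ZT4. Dbp, a clock output, was at 0.854, 1.58 and 1.17 FPKM in RE livers at ZT16 and 2.06, 2.42 and 1.66 FPKM at ZT4, and was not called, at -0.48 ± 0.21 (adjusted p = 0.13).

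Per2, the partner of Per1, was at 9.67, 8.14 and 9.25 FPKM at ZT16, against 1.28, 1.19 and 3.61 FPKM at ZT4 in RE livers, a change of 1.82 ± 0.37 (adjusted p = 0.0078). In WT livers it was at 8.78, 8.97 and 10.5 FPKM at ZT16, against 1.38, 1.55 and 1.98 FPKM at ZT4, a change of 1.98 ± 0.15 (adjusted p = 2.9e-06). The difference between these changes, RE minus WT, was -0.17 ± 0.42 (adjusted p = 0.86). Cry1 was at 22.9, 22.5 and 36.6 FPKM at ZT16, against 18.6, 21.2 and 18.6 FPKM at ZT4 in RE livers, a change of 0.44 ± 0.19 (adjusted p = 0.14). In WT livers it was at 12.7, 12.8 and 12.8 FPKM at ZT16, against 3.12, 2.69 and 1.20 FPKM at ZT4. There the difference of -1.66 ± 0.34 (adjusted p = 0.0062) was called. Clock was at 8.29, 8.28 and 11.8 FPKM at ZT16, against 4.64, 5.61 and 5.51 FPKM at ZT4, without overlap, and lost its call without liver 2 (adjusted p = 0.14).

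The same contrast gave 2023 calls in WT livers (18.5%), 1150 higher (10.5%) and 873 lower (7.99%), and 1 call in KO livers (0.00915%), a gene model, with 1832 KO genes at an unadjusted p under 0.05. Between RE and WT 527 genes were called in both, which is 32.1% of the RE calls and 26.1% of the WT calls. Of these 499 had the same sign and 28 the opposite. Within-group spread had a median of 0.196 log2 units in RE, 0.172 in KO and 0.134 in WT livers, so the genotypes do not have equal power.

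Tested directly, the ZT16 minus ZT4 change differed between RE and WT livers in 428 genes (3.92%), 117 with a higher change in RE (1.07%) and 311 with a lower one (2.84%). Without ZT16 liver 2 of RE the count was 263 (2.41%). Of the 428, 195 were called in RE and not in WT, 164 in WT and not in RE, 33 in both, and 36 in neither. In the 33, 28 had opposite signs. The 311 genes had a median change of -0.46 in RE and 0.30 in WT, the 117 a median of 0.50 in RE and -0.20 in WT. These medians and the opposite signs describe genes chosen for their RE minus WT difference, which partly fixes them.

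Pck1 was the gene with the greatest positive difference after Nr1d1 among those named. It was at 819, 629 and 1595 FPKM at ZT16 and 211, 199.8 and 314 FPKM at ZT4 in RE livers. In WT livers it was at 488, 212 and 144 FPKM at ZT16 and 696, 437 and 502 FPKM at ZT4. The RE livers were higher at ZT16. The WT livers were lower with some overlap, but the WT change of -1.12 ± 0.47 (adjusted p = 0.11) was not called. The difference between the RE and WT changes was 3.10 ± 0.67 (adjusted p = 0.0087). Slc25a25 was at 67, 80.8 and 61.6 FPKM at ZT16 and 78.5, 82 and 80.01 FPKM at ZT4 in WT livers, and the difference from the RE change was 2.20 ± 0.56 (adjusted p = 0.024). Wsb1, a substrate receptor of ubiquitin ligases, was at 15.2, 12.5 and 36.8 FPKM at ZT16, against 4.22, 6.92 and 6.00 FPKM at ZT4 in RE livers and at 3.19, 7.41 and 3.68 FPKM at ZT16, against 7.18, 8.87 and 5.78 FPKM at ZT4 in WT livers. The difference was 2.19 ± 0.49 (adjusted p = 0.011), and 1.74 ± 0.46 (adjusted p = 0.040) without liver 2.

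Negative differences came from falls in RE and from rises in WT. Acacb was at 13, 19.8 and 27.5 FPKM at ZT16, against 19.8, 16.6 and 14.8 FPKM at ZT4 in WT livers, and the difference was -1.94 ± 0.50 (adjusted p = 0.025). Cyp8b1 was at 295, 198 and 252 FPKM at ZT16, against 291, 344 and 251 FPKM at ZT4 in WT livers, with a difference of -1.84 ± 0.53 (adjusted p = 0.045). Without RE ZT16 liver 2 neither was called, at -1.88 ± 0.54 (adjusted p = 0.060) for Acacb and -1.13 ± 0.39 (adjusted p = 0.12) for Cyp8b1. Hfe2 was at 56.1, 53.1 and 58.7 FPKM at ZT16, against 54.8, 54.9 and 44.1 FPKM at ZT4 in WT livers, with a difference of -1.14 ± 0.16 (adjusted p = 0.00014). In all 3 the WT groups overlapped. The RE groups did not, but for Acacb and Cyp8b1 that was a condition of their choice among the largest falls, with no such condition on WT. Cyp2a5, a cytochrome of xenobiotic metabolism, differed through WT: it was at 56.2, 51.9 and 36.9 FPKM at ZT16, against 56.4, 65.3 and 102 FPKM at ZT4 in RE livers and at 888, 559 and 567 FPKM at ZT16, against 85.3, 277 and 169 FPKM at ZT4 in WT livers, a difference of -2.63 ± 0.52 (adjusted p = 0.0050). Lpl, lipoprotein lipase, was at 80.04, 109.5 and 112 FPKM at ZT16, against 105, 85.2 and 91.4 FPKM at ZT4 in RE livers and at 2.77, 2.83 and 2.36 FPKM at ZT16, against 12.8, 6.29 and 13.4 FPKM at ZT4 in WT livers, so that a difference of 1.73 ± 0.31 (adjusted p = 0.0023) in change stood on levels far apart at both times.

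**Figure D4:**
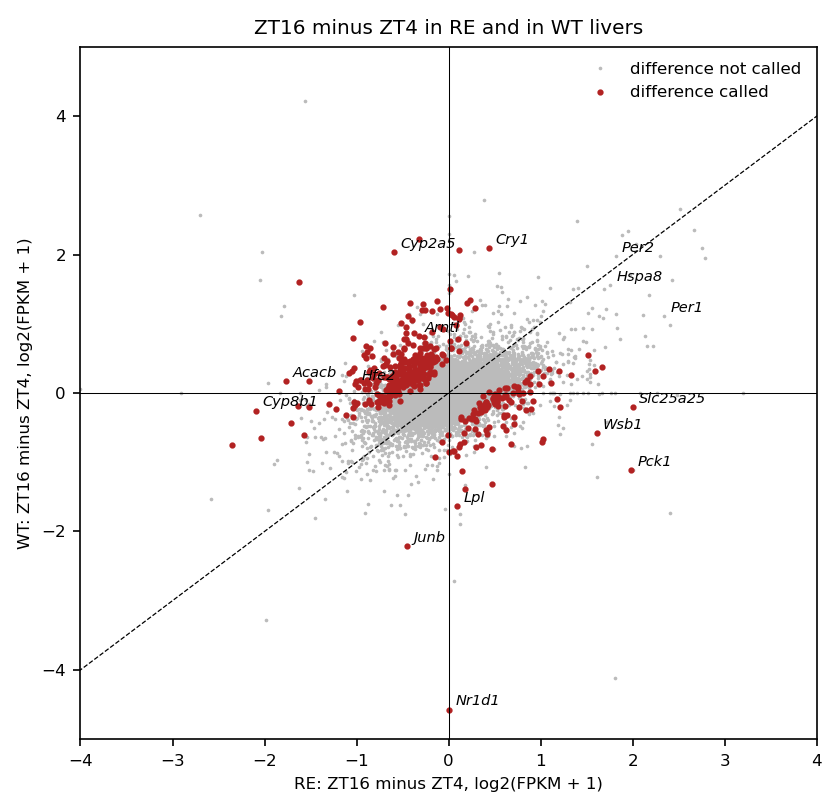
Change between ZT16 and ZT4 in RE livers (horizontal axis) against the same change in WT livers (vertical axis), both in log2(FPKM + 1), for the genes tested; the dashed line marks equal change. Red points are the 428 genes whose RE change differed from the WT change, and 5 genes lie outside the axes.

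Lists were read side by side, beside the shares over all genes tested. Those were 7.24% higher and 7.77% lower in RE, and 10.5% and 7.99% in WT. The RE minus WT difference was called higher in 1.07% and lower in 2.84% of all genes. Heat shock genes were called in both genotypes, 8 of 20 in RE and 18 of 20 in WT, all higher at ZT16. The RE minus WT difference was called in 2 of them, the mitochondrial pair Hspd1 and Hspe1, at -0.65 ± 0.15 (adjusted p = 0.016) and -0.73 ± 0.18 (adjusted p = 0.023). Glucocorticoid receptor targets held 5 of 14 rises in RE and 5 of 14 in WT, with no called difference. Lipogenesis held 2 falls and no rise in RE, and 8 rises and 1 fall among 21 in WT, with 3 called differences (Acacb, Fads2 and Agpat2), each lower in RE. Cytochrome P450 and xenobiotic genes held 1 rise of 23 in RE and 9 in WT, with 1 called difference, Cyp2a5. Amino acid breakdown held 3 falls in RE, and 8 rises and 1 fall of 26 in WT, with 2 called differences (Prodh and Aldh4a1), lower in RE.

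Between RE and KO livers, no gene's change differed at an adjusted p under 0.05 in limma, and 1305 genes (11.9%) did at an unadjusted p under 0.05. With limma's array weights, which give less weight to livers that stand apart, 615 did at the adjusted threshold. The lowest adjusted p was 0.19, for C1qtnf2 and Pcp4l1. A miss of the threshold does not show equal changes: the median standard error of the RE minus KO difference was 0.21 in the genes that rose in RE. Of the 791 genes that rose in RE, 88.4% had a positive change in KO livers, beside 45.5% of all genes tested. Of the 849 that fell, 11.7% had a positive change. Leaving out each KO liver in turn moved the share of risen genes with a positive KO change between 78.3% and 92.3%, and the share of fallen genes with a negative one between 80.8% and 93.1%. Rescaling each library to the same sum of FPKM moved the median KO change of all genes to 0.091, against -0.024 as deposited. On that scale 97.1% of the risen genes had a positive KO change and 74.1% of the fallen ones a negative one, beside 66.1% of all genes with a positive change. As deposited, the median change of the risen genes was 0.63 in RE, 0.24 in WT and 0.20 in KO livers, and that of the fallen genes -0.59, -0.20 and -0.23. The RE medians describe genes chosen for their RE change.

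Genes described above can be set beside their KO values. Hspa8 was at 667, 813 and 1389 FPKM at ZT16, against 864, 609 and 383 FPKM at ZT4 in KO livers, a change of 0.63 ± 0.30 (adjusted p = 0.30), with overlapping groups. Chordc1 was at 17.9, 19.6 and 25.1 FPKM at ZT16, against 11.6, 11.7 and 8.29 FPKM at ZT4, without overlap, a change of 0.92 ± 0.17 (adjusted p = 0.089). Per1 was at 2.42, 1.38 and 2.60 FPKM at ZT16, against 2.30, 2.53 and 0.583 FPKM at ZT4, a change of 0.22 ± 0.40 (adjusted p = 0.82). The RE minus KO differences were 1.12 ± 0.40 (adjusted p = 0.30) for Hspa8, 0.76 ± 0.33 (adjusted p = 0.37) for Chordc1 and 2.12 ± 0.58 (adjusted p = 0.23) for Per1. None passed.

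Within the RE day, ZT16 and ZT4 were near the ends of the range for the called genes, as the choice of those genes partly fixes. Of the 791 that rose, 727 had their highest mean of the 6 times at ZT16 (91.9%, beside 26.9% of all genes tested), and 482 their lowest at ZT4 (60.9%, beside 14.8%). Of the 849 that fell, 738 were lowest at ZT16 (86.9%, beside 24.2%) and 462 highest at ZT4 (54.4%, beside 14%). All 15 of the largest rises had their lowest mean at ZT4, and 9 had their highest at ZT16. Hspa8 averaged 1465 ± 229.7 FPKM at ZT16, against 745 ± 8.72 FPKM at ZT12 and 513 ± 149 FPKM at ZT20 (SD, n = 3). All 3 ZT16 livers were above every liver of those neighbours. Pck1 averaged 1136 ± 533 FPKM at ZT8, 1012 ± 334 FPKM at ZT12 and 1014 ± 512 FPKM at ZT16, 3 levels within their spread. Cyp8b1 averaged 464 ± 92 FPKM at ZT8 and 281 ± 57.5 FPKM at ZT12, against a ZT4 mean of 428 ± 160.3 FPKM and a ZT16 mean of 115 ± 69.9 FPKM. It was high at ZT4 and ZT8 and lowest at ZT16.

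**Figure D5:**
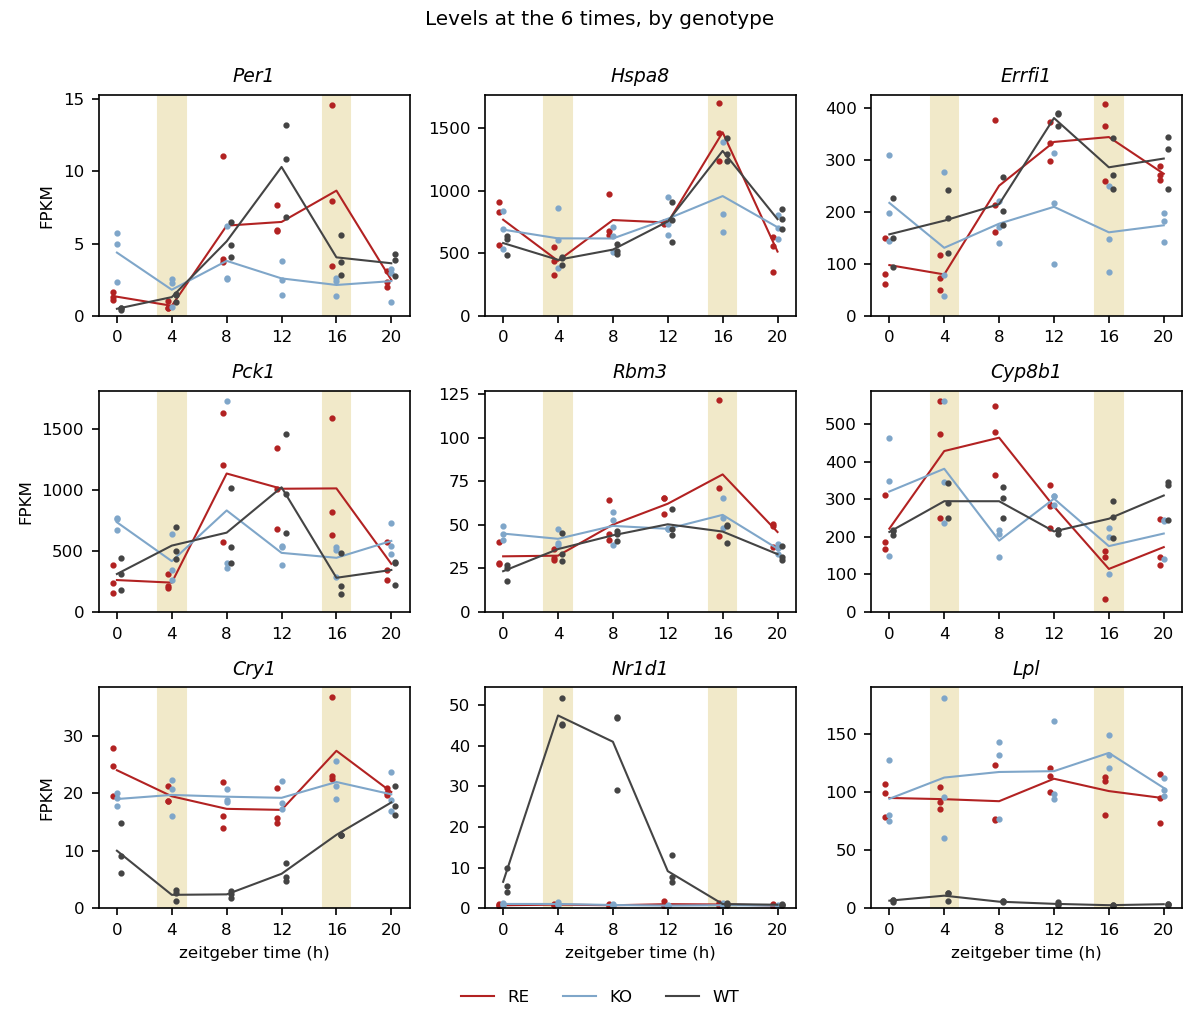
FPKM (vertical axes, linear, from 0) of 9 genes at the 6 zeitgeber times (horizontal axes, hours) in RE, KO and WT livers, with points for single livers and lines through the means; the shaded bands mark ZT4 and ZT16. Hspa8 peaks at ZT16 in RE and WT, Pck1 stays high from ZT8 to ZT16 in RE, and Nr1d1 is near 1 FPKM at all times in RE and KO.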

How the data were processed

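Liver RNA was sequenced in 54 libraries of 18 groups, 3 livers each. The aligner and build were TopHat and mm10, per the submitters' processing notes; for the quantifier and the gene models no source used here names any. The authors deposited FPKM for 24346 gene symbols, with no counts, so depth is unknown and precision rests on the spread between livers. Columns are numbered 0 to 2 and titles 1 to 3, so columns were assigned to groups only. Tested were 10932 genes whose group mean reached 1 FPKM at any time and genotype, on log2(FPKM + 1), with limma 3.58.1 in R 4.3.3 (group means, eBayes with trend, two-sided, Benjamini-Hochberg over all genes tested): RE changes from the 18 RE libraries (12 residual degrees of freedom), differences between genotypes from 36 libraries (24). The fit was tested on simulated data.

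Named are the 15 largest rises and falls among called genes that averaged 5 FPKM or more and did not overlap, the core clock genes, up to 4 called members of each list, the 8 largest differences from WT of each sign, and rate-limiting enzymes and hormones; other list members were named to account for small counts. Gene models were counted only, and some genes of the rule are not reported here. Members and lists were chosen with earlier results of these data known. Promoter windows of the RefSeq table (GRCm38.p6) were found for 94 of 113 named genes.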

Additional observations from a re-analysis of the deposited data

Results flagged for a closer look

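For 28 named genes the ZT16 minus ZT4 change differed between RE and WT livers in the limma fit of the 36 RE and WT libraries (adjusted p under 0.05). All values here are RE minus WT differences of the log2(FPKM + 1) change.

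The change was more positive in RE livers for Nr1d1, a clock repressor, by 4.58, and for Pck1 by 3.1. Slc25a25 (2.2), Wsb1 (2.19), the tetraspanin Cd9 (1.78), the AP-1 subunit Junb (1.76), Lpl (1.73), the phospholipase Pla2g12a (1.69), Stbd1 (1.04) and the tropomyosin Tpm4 (0.92) followed.

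Among clock genes the change was more negative in RE livers for Cry1 (-1.66), Arntl (-1.14) and Per3 (-1.11). Of the genes with the largest falls in RE, it was more negative for Acacb (-1.94), Cyp8b1 (-1.84), Sucnr1 (-1.7), Fam129b (-1.6), Tlr12 (-1.45) and Adck3 (-0.96). Cml5 (-3.23), Cyp2a5 (-2.63), the carboxylesterase Ces1d (-1.95), the lysosomal transporter Slc46a3 (-1.83) and the acetyltransferase Nat8 (-1.73) rose in WT livers. Hfe2 (-1.14), Lpcat3 (-0.9), Aldh4a1 (-0.87) and Uqcrc1 (-0.67) fell in RE livers. Nat8 was at 0.681, 0.352 and 0.107 FPKM in RE livers at ZT16, against 72, 74.7 and 84.1 FPKM in WT livers at ZT16, so its difference stood on levels far apart.

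Without RE ZT16 liver 2, 20 of the 28 differences were called. Those that were not were Acacb, Cyp8b1, Fam129b, Tlr12, Tpm4, Stbd1, Junb and Uqcrc1, and the difference of Cyp8b1 was -1.13 ± 0.39 (adjusted p = 0.12).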

How the results depend on the processing

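The 1640 RE calls stayed within 1.5 times under another pseudocount, filter, scaling or robust fit (1258 to 1774), and were 3045 with the spread of all 54 libraries, 3661 with array weights and 484 from the ZT16 and ZT4 libraries alone; leaving out 1 liver gave 389 (without ZT4 liver 0) to 1440. The 428 RE minus WT calls were 156 from the ZT16 and ZT4 libraries alone and 1582 with array weights, and 154 (without WT ZT4 liver 2) to 704 (without RE ZT16 liver 0) with 1 liver left out. That count also moved by over 1.5 times without RE ZT4 liver 0 (208), RE ZT16 liver 2 (263), WT ZT4 liver 0 (240), and WT ZT16 livers 0 (269), 1 (274) and 2 (223). The RE minus KO count of 0 was 2 with all 54 libraries, 1 from the ZT16 and ZT4 libraries and 615 with array weights, and 0 to 5 with 1 liver left out. Without RE ZT16 liver 2 and from the ZT16 and ZT4 libraries alone, an alternative chosen after seeing the data, the counts were 663 in RE, 264 for RE minus WT and 1 for RE minus KO. The causes were not tested. Of 84 named genes called in RE, 13 were called under every alternative; 56 calls ended without ZT4 liver 0, 49 with the ZT16 and ZT4 libraries alone and 34 without ZT16 liver 2. No named change that was called reversed its sign. No paired analysis was possible because every animal was sampled at a single labelled time.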
